A study of Drosophila melanogaster with 6 samples.

Results

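The proteasome is the protease that degrades ubiquitin-tagged proteins in the cytosol and nucleus. Its barrel-shaped core particle is built from rings of alpha and beta subunits, and some of the beta subunits carry the proteolytic sites. A regulatory particle sits on the core: its base holds a ring of ATPases that unfold substrates together with ubiquitin receptors, and its lid holds the enzyme that removes ubiquitin chains. TER94, the fly p97 ATPase (VCP in mammals), is not a proteasome subunit. It pulls ubiquitylated proteins out of complexes and out of the membrane of the endoplasmic reticulum and passes many of them to the proteasome.

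The genes described here were chosen by name: those whose symbols begin with Rpn, Rpt, Prosalpha or Prosbeta and a digit, and TER94. These were 48 of the 23932 genes in the deposited tables, namely 32 canonical subunits, 15 paralogues whose names end in R or T, and TER94. The canonical subunits comprise 7 alpha and 7 beta core subunits, 10 of the base and 8 of the lid. The naming rule uses no measured value, though the set was chosen with earlier results of these data known. Of the 48 genes, 34 passed the filter on low counts: all 32 canonical subunits, the paralogue Rpt6R and TER94.

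The study measured total RNA from the Drosophila melanogaster line S2R+, an established cell line of late embryonic origin, by TGIRT-seq, a method in which a thermostable group II intron reverse transcriptase copies small and long RNAs into the same library after ribosomal RNA is depleted. The control was double-stranded RNA to lacZ, a bacterial gene (dsLacZ, 3 libraries), and the other 3 libraries carry the label dsFib, for double-stranded RNA to the gene of Fibrillarin, which methylates RNA within box C/D particles. All were of the same line, and the labels give no dose or time for either RNA. Whether the libraries of a group are separate cultures is not stated, so a p-value here reflects library-to-library spread that may be technical.

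Fib, the targeted gene, was higher in the libraries labelled dsFib, at 1311, 954.1 and 993.4 CPM (each count divided by the TMM-scaled library size and brought to the CPM scale) in replicates 1, 2 and 3, against 213.7, 257.2 and 227.2 CPM in dsLacZ. A rise in Fib mRNA would go against the label, but counts per gene cannot tell Fib mRNA from added double-stranded RNA to Fib. The source of these reads was not tested, so directions are given as libraries labelled dsFib relative to dsLacZ. Depth was 11695250 to 15172052 counts per library. Small RNA genes took 48.6% of the counts in dsLacZ replicate 2 and 35.1% to 43.1% in the other libraries, so that dsLacZ replicate 2 stood apart. Of plasmatocyte markers known from S2 lines, srp, crq and Pxn had 26.7 ± 3.13, 280 ± 19.1 and 39.1 ± 3.07 CPM in dsLacZ (mean ± SD, n = 3), while Hml had 6.15 ± 2.46 CPM, eater 0.539 ± 0.491 CPM and Sr-CI 0.049 ± 0.084 CPM, and NimC1 and gcm had 0 counts there. Summed over these 8 markers, levels were 338.8 to 360.8 CPM in dsLacZ and 307.9 to 336.0 CPM under the dsFib label, most of it crq.

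TER94 fell in the libraries labelled dsFib, and it was the sole one of the 34 tested genes to pass. In dsLacZ replicates 1, 2 and 3 its CPM was 688.4, 603.7 and 644.9, against 434.6, 431.3 and 410.3 CPM in libraries labelled dsFib. The lowest control library thus lay above the highest library labelled dsFib. The fall was 1.52-fold (95% interval 1.30 to 1.78; log2 fold change -0.60, SE 0.10, edgeR quasi-likelihood test with Benjamini-Hochberg correction, adjusted p = 0.0365, n = 3 per group). Over all 8302 genes tested, 75 were called (0.903%), 31 of them lower (0.373%) and 44 higher (0.53%). By mean CPM, which takes no account of transcript length, TER94 was the fourth of these 31 and the first of the 12 lower calls outside the small RNA classes. Among the 292 genes outside those classes with a mean of at least 300 CPM, TER94 was the sole lower call. The limit was set after the values were seen, and TER94 had the highest level of the 12, so this adds no support. Of the 292 genes, 2 others had a more negative log2 fold change without passing.

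The TER94 call depended on the libraries used. With dsLacZ replicate 2 left out the adjusted p was 0.00609, but without dsLacZ replicates 1 and 3 it was 0.0570 and 0.183, and without dsFib replicates 1, 2 and 3 it was 0.247, 0.146 and 0.172. It was 0.115 with scaling by total counts alone. The size moved little, with log2 fold changes between -0.65 and -0.54 over these fits. With all 6 libraries, DESeq2 and limma-voom called TER94 as well. Over all genes, 310 were called without dsLacZ replicate 2, and 113 and 3 without dsLacZ replicates 1 and 3. Without dsFib replicates 1, 2 and 3 the calls were 2, 7 and 2, and with total counts alone 31.

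TER94 lies on 2R (9989159 to 9993559, plus strand, dm6). The gene annotated on its opposite strand, lncRNA:CR45324, had at most 0.18% of the counts of TER94 in any library. In bulk RNA, fewer cells of a kind and less RNA per cell cannot be told apart for TER94 or for any gene below.

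**Figure D1:**
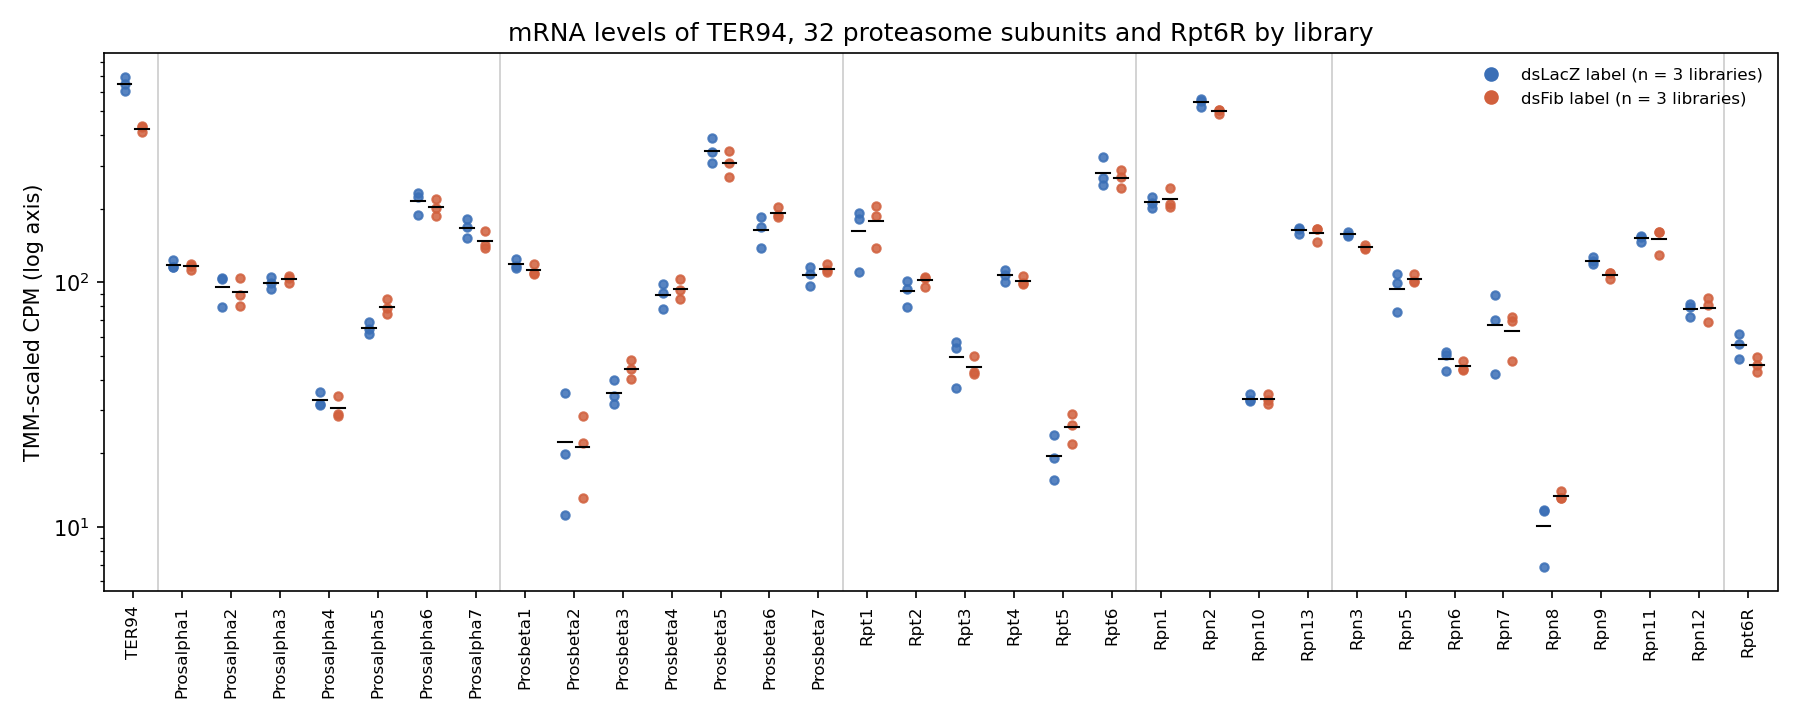
TMM-scaled CPM (log axis) of TER94, the 32 canonical proteasome subunits and Rpt6R in each of the 6 libraries, with short lines at group means. The 3 libraries labelled dsFib lie below the 3 dsLacZ libraries for TER94 (at most 434.6 against at least 603.7 CPM), while the groups overlap for most subunits.

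No canonical proteasome subunit was called. None of the 32 passed the test by edgeR, DESeq2 or limma-voom, which called 0.903%, 3.85% and 0.807% of all genes tested. At such rates 0 calls among 32 genes is near the background. Without adjustment, at p under 0.05, there were 2 higher subunits (Prosalpha5 and Prosbeta3) and 0 lower, where 7.67% of all genes were higher and 8.26% lower. Of the 32, 19 had a log2 fold change below 0 (51.7% of all genes tested did) and 13 above, and the median was -0.029 against -0.010 over all genes. Their log2 fold changes ran from -0.19 to 0.41. Libraries of the groups did not overlap for 3 lower subunits (Rpn2, Rpn3 and Rpn9) and 4 higher ones (Prosalpha5, Prosbeta3, Prosbeta6 and Rpn8), against 12.1% and 11.0% of all genes, so these shares are near the background.

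The precision differed between subunits. The SE of the log2 fold change was 0.08 to 0.40, with a median of 0.11 (0.17 over all genes tested). The widest 95% interval among subunits, that of Prosbeta2, ran from -0.99 to 0.85, so that changes of up to 1.99-fold in Prosbeta2 lie within it. Prosbeta2 varied by 55.4% (CV) between dsLacZ libraries and by 36.2% between those labelled dsFib. The interval of Rpn7 ran from -0.68 to 0.50. Both intervals include -0.60, the log2 fold change of TER94, so a fall of that size is not excluded for these subunits. For Rpn3, by contrast, the interval ran from -0.37 to 0.01.

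**Figure D2:**
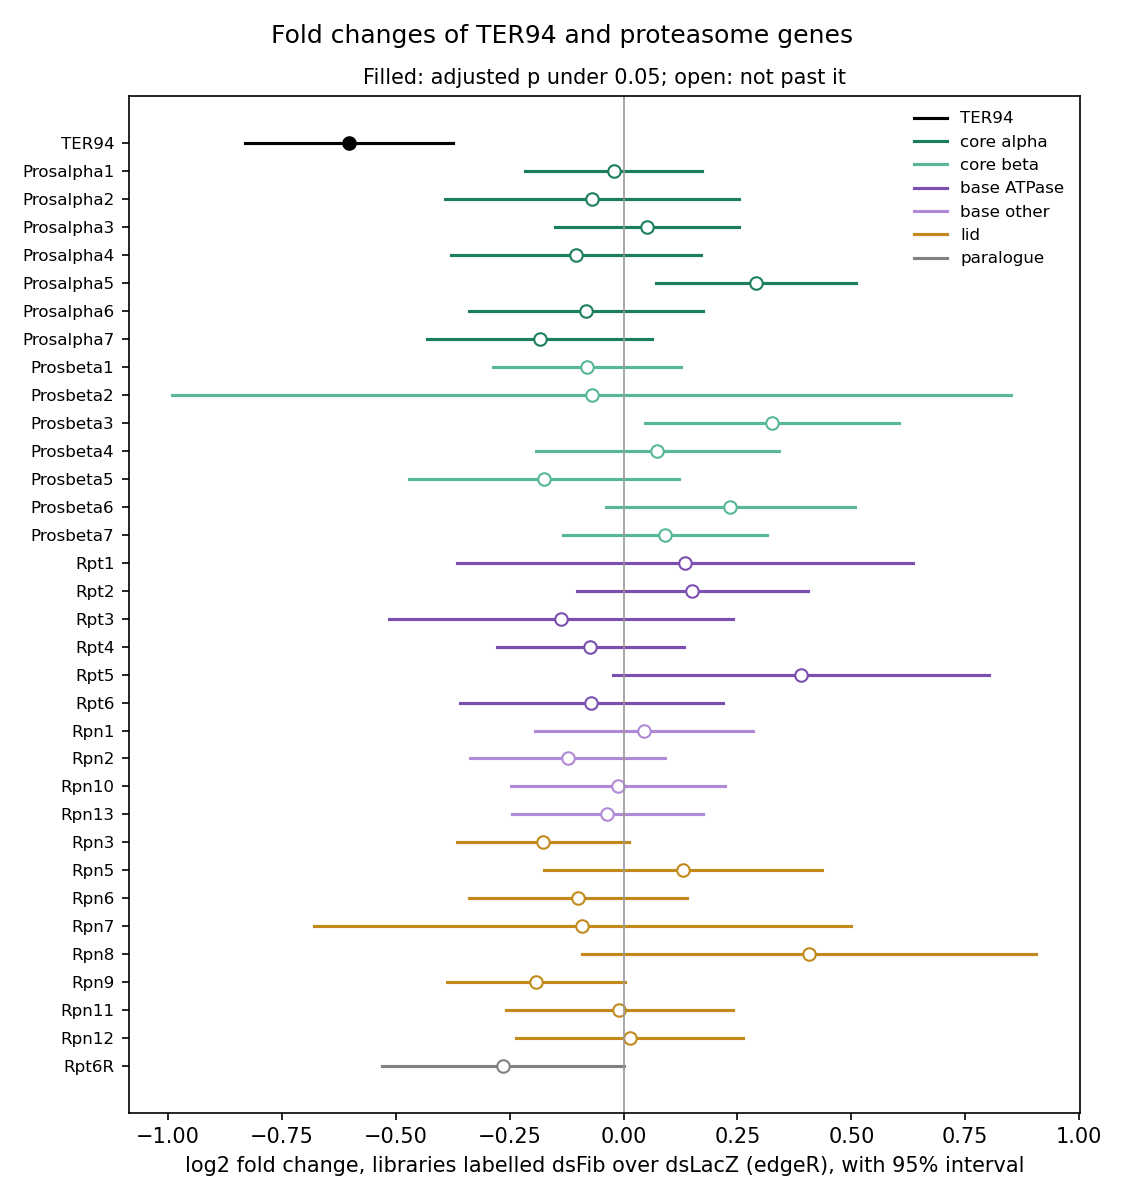
log2 fold change of each tested gene, libraries labelled dsFib over dsLacZ, with its 95% interval from the edgeR fit (n = 3 per group) and colour by class. TER94 at -0.60 is the single filled point; subunits lie between -0.19 and 0.41, and most of their intervals cross 0.

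Alpha subunits form the outer rings of the core and gate the entry of substrates. The log2 fold change was above 0 for 2 of the 7 and below it for 5, and its median was -0.07. Prosalpha5 (2R, 17412767 to 17413769, plus strand) had the smallest p of the class, with 61.5, 64.6 and 69.1 CPM in dsLacZ replicates 1 to 3, against 85.7, 78.6 and 74.5 CPM in libraries labelled dsFib. All libraries labelled dsFib lay above all controls, but the difference did not pass (log2 fold change 0.29, SE 0.10, edgeR adjusted p = 0.204). Prosalpha6, the alpha gene with the highest level per length, had 188.9, 231.4 and 223.2 CPM in dsLacZ and 201.5, 187.1 and 219.0 CPM in libraries labelled dsFib. These groups overlapped, with a log2 fold change of -0.083 (SE 0.11). The others had -0.02 (Prosalpha1), -0.07 (Prosalpha2), 0.05 (Prosalpha3), -0.10 (Prosalpha4) and -0.18 (Prosalpha7).

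Beta subunits make up the inner rings. Prosbeta1, Prosbeta2 and Prosbeta5 carry the caspase-like, trypsin-like and chymotrypsin-like sites. The log2 fold change was above 0 for 4 of the 7 beta genes and below it for 3 (median 0.07). Prosbeta5 had the highest level per length of all 32 subunits. Its level was 306.7, 388.9 and 341.2 CPM in dsLacZ and 306.8, 268.9 and 343.3 CPM in libraries labelled dsFib, with a log2 fold change of -0.17 (SE 0.13, edgeR adjusted p = 0.566). The groups overlapped, and dsLacZ replicate 2 was the highest library. Prosbeta3 (3R, 9005313 to 9006226, minus strand), which has no catalytic site, had the smallest p of the class, with 39.7, 31.7 and 34.4 CPM in dsLacZ and 44.2, 48.3 and 40.3 CPM in libraries labelled dsFib. The nearest libraries of the groups differed by less than 1 CPM, and the log2 fold change of 0.33 (SE 0.12) did not pass (edgeR adjusted p = 0.247). CG11980 on its opposite strand had 60.8% to 121.2% of the counts of Prosbeta3, and the sources used here do not say whether counting used strand. For the other beta genes the log2 fold changes were -0.080 (Prosbeta1), -0.070 (Prosbeta2), 0.07 (Prosbeta4), 0.23 (Prosbeta6) and 0.09 (Prosbeta7).

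The 6 ATPases of the base form the ring that unfolds substrates and opens the core. They lay 3 above and 3 below 0, around a median of 0.03 on the log2 scale. Rpt5 (3R, 23752876 to 23754623, plus strand) had the smallest p, with 23.7, 15.6 and 19.2 CPM in dsLacZ and 26.0, 28.9 and 21.8 CPM in libraries labelled dsFib. The groups overlapped, and its log2 fold change of 0.39 (SE 0.18) had an edgeR adjusted p = 0.338. Hrd3, a gene of endoplasmic reticulum degradation that overlaps Rpt5 on the opposite strand, had 53.6% to 97.8% of its counts. Rpt6, the ATPase gene with the highest level per length, had 249.2, 325.5 and 265.9 CPM in dsLacZ and 268.6, 243.1 and 288.4 CPM in libraries labelled dsFib. Its highest library was dsLacZ replicate 2, and its log2 fold change was -0.071 (SE 0.13). The remaining values were 0.13 (Rpt1), 0.15 (Rpt2), -0.14 (Rpt3) and -0.073 (Rpt4).

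Of the non-ATPase base subunits, Rpn1 and Rpn2 are large scaffolds, and Rpn10 and Rpn13 are ubiquitin receptors. Rpn2 had both the smallest p and the highest level per length of the 4. Its level was 561.7, 521.9 and 549.3 CPM in dsLacZ and 504.8, 507.2 and 487.8 CPM in libraries labelled dsFib. The libraries labelled dsFib all lay below the controls, by a log2 fold change of -0.12 (SE 0.09, edgeR adjusted p = 0.578). Rpn1, Rpn10 and Rpn13 had 0.04, -0.01 and -0.04. Over the whole base of 10 genes, 4 lay above 0 and 6 below, and the median was -0.02.

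In the lid, Rpn11 is the deubiquitinating enzyme and Rpn8 its partner, and the other subunits are scaffolds. For 3 of the 8 genes the log2 fold change was above 0 and for 5 below (median -0.05). Rpn9 (3R, 23731375 to 23733462, minus strand) had the smallest p, with 118.7, 127.1 and 122.2 CPM in dsLacZ and 109.5, 103.5 and 109.1 CPM in libraries labelled dsFib. Though the groups did not overlap, its log2 fold change of -0.19 (SE 0.09) did not pass (edgeR adjusted p = 0.318). CG10365 overlaps Rpn9 on the opposite strand, with 29.0% to 34.3% of its counts. Rpn11, the most abundant lid gene per length, had 146.9, 155.3 and 152.6 CPM in dsLacZ and 161.2, 129.5 and 161.2 CPM in libraries labelled dsFib. Its groups overlapped, with a log2 fold change of -0.0091 (SE 0.11). Rpn3, Rpn5, Rpn6, Rpn7, Rpn8 and Rpn12 had -0.18, 0.13, -0.10, -0.09, 0.41 and 0.01.

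Ratios within a library do not depend on how libraries are scaled. TER94 had 17.0, 15.0 and 15.6 counts per 100 counts of the 32 subunits in dsLacZ replicates 1, 2 and 3, and 10.8, 11.0 and 10.3 in the libraries labelled dsFib. Every library labelled dsFib lay below every control, and the log2 ratio was 0.57 lower on average, going from -2.66 ± 0.09 to -3.23 ± 0.05 (mean ± SD, n = 3). An exact permutation test, two-sided, returned p = 0.1, the least possible with 3 libraries against 3 (Benjamini-Hochberg adjusted p = 0.233 over the 7 within-library quantities tested). As a share of all counts TER94 took 0.0659% ± 0.0115 in dsLacZ against 0.0421% ± 0.0030 in libraries labelled dsFib (exact p = 0.1, adjusted p = 0.233).

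Proportions among the subunits were compared next. Core genes had 66.9, 74.1 and 69.3 counts per 100 counts of the regulatory particle in dsLacZ and 69.4, 68.5 and 75.3 in the libraries labelled dsFib. Here the groups overlapped, with a difference in log2 ratio of 0.02 (exact permutation p = 0.6, adjusted p = 0.6). The log2 ratio of alpha to beta counts was -0.15 ± 0.05 and -0.20 ± 0.06 (exact p = 0.5, adjusted p = 0.6), and that of base to lid counts 1.19 ± 0.01 and 1.22 ± 0.05 (exact p = 0.6, adjusted p = 0.6). All 32 subunits together took 0.413% ± 0.049 of the counts in dsLacZ against 0.394% ± 0.016 in libraries labelled dsFib (exact p = 0.6, adjusted p = 0.6). This depended on the denominator. Of the counts outside the small RNA classes the 32 subunits took 0.698%, 0.698% and 0.709% in dsLacZ replicates 1, 2 and 3 and 0.675%, 0.668% and 0.669% under the dsFib label. These groups did not overlap (difference -0.031 percentage points, exact permutation p = 0.1, the least possible and not adjusted). With dsLacZ replicate 2 left out, the share of all counts differed by -0.047 percentage points, also without overlap (exact permutation p = 0.1, the least possible).

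**Figure D3:**
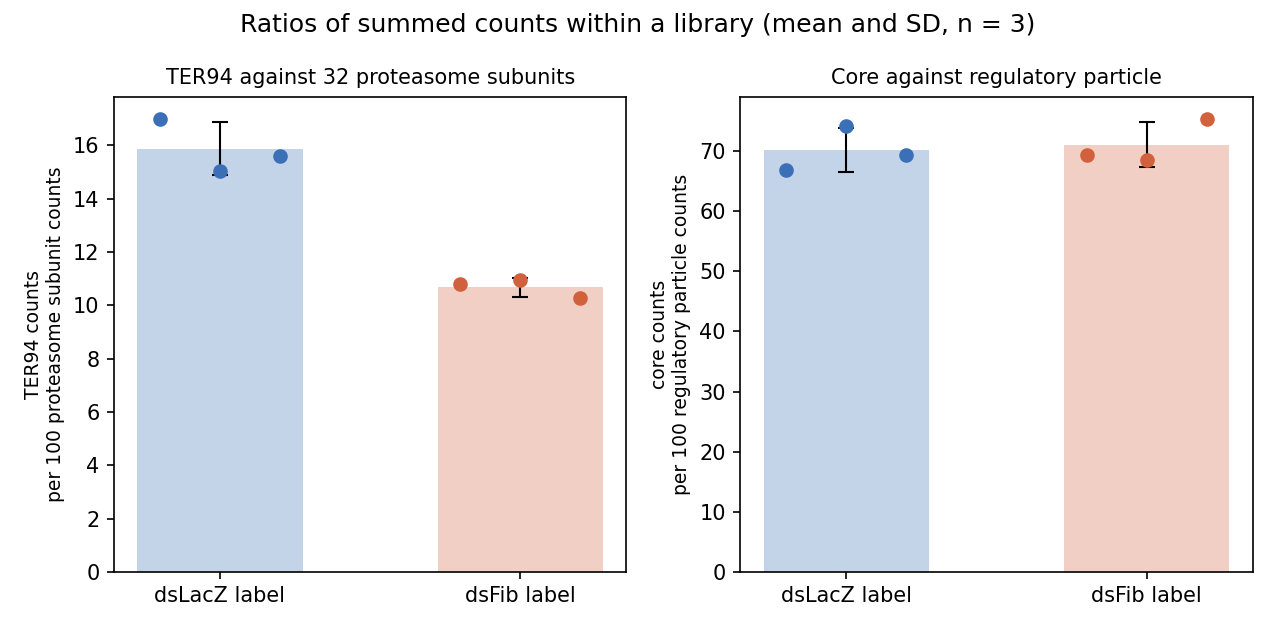
Left, TER94 counts per 100 counts of the 32 proteasome subunits; right, core counts per 100 counts of the regulatory particle. Points are libraries, bars the group mean and whiskers the SD (n = 3). The TER94 ratio is 15.0 to 17.0 in dsLacZ against 10.3 to 11.0 in libraries labelled dsFib, while the groups overlap on the right.

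Although their proteins assemble in fixed numbers, the subunit mRNAs differed widely in level. Per length, in the authors' deposited TPM, mean levels over the 6 libraries ran from 3.34 for Rpn8 to 116.0 for Prosbeta5, a 34.7-fold range. Prosbeta5 was first and Rpn8 last of the 32 in each of the 6 libraries. Rpn8, Rpt5 and Prosbeta2, the lowest by mean, each overlap a gene on the opposite strand. For Rpn8 this gene, Slik, had 501.0% to 683.1% of its counts. Strand use in counting is not given, so the low end of the range is less certain. Next to Prosbeta5 came Prosalpha6 (82.6 TPM), Rpt6 (78.8 TPM) and Prosbeta6 (78.0 TPM). These 3 changed places between libraries, with Prosbeta6 between rank 2 and rank 7. At the low end, Rpt5 (5.75 TPM) and Prosbeta2 (9.07 TPM) lay close: Prosbeta2 was the higher in 5 of the 6 libraries, and in dsFib replicate 3 it had 4.60 TPM against 4.86 TPM for Rpt5. Class medians were 45.5 TPM for the core, 29.3 TPM for the base and 26.8 TPM for the lid, with ranges that overlapped. TER94 had 117.6, 63.1 and 95.7 TPM in dsLacZ and 54.5, 62.9 and 49.4 TPM in the libraries labelled dsFib, so on this scale dsLacZ replicate 2 lay barely above the highest library labelled dsFib.

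**Figure D4:**
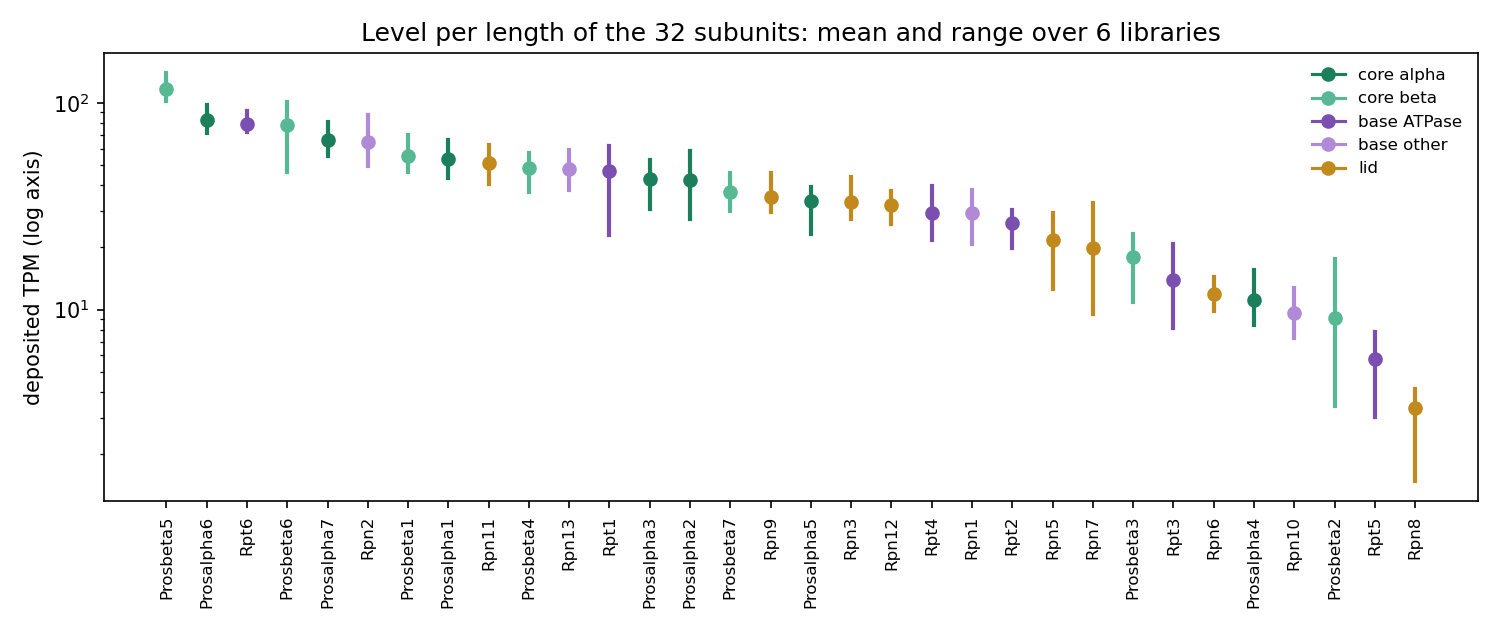
Deposited TPM (log axis) of the 32 canonical subunits, as mean (point) and range (line) over the 6 libraries, ordered by mean and coloured by class. Prosbeta5 has the highest mean at 116.0 TPM and Rpn8 the lowest at 3.34 TPM, and the classes are interspersed.

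Variation between libraries was described next. The highest library was more than 1.5-fold above the lowest, a limit set after the values were seen, for 7 of the 32 subunits, or 21.9%, against 34.8% of the 5211 genes outside the small RNA classes with a mean of at least 10 CPM. Prosbeta2 was first with 3.17-fold, followed by Rpn7 (2.10-fold), Rpn8 (2.03-fold), Rpt1 (1.87-fold), Rpt5 (1.85-fold), Rpt3 (1.55-fold) and Prosbeta3 (1.52-fold). In each of these 7, dsLacZ replicate 2 was the lowest library, which held for 5 of the other 25 subunits and for 26.1% of all genes tested. The 7 were picked by their spread over these same libraries, which favours genes extreme in an outlying library. The 26.1% is not limited to genes over the 1.5-fold limit, so the shares are not a like comparison.

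The trypsin-like site gene Prosbeta2 had 35.3, 11.2 and 19.9 CPM in dsLacZ replicates 1 to 3, against 22.1, 28.3 and 13.1 CPM in dsFib replicates 1, 2 and 3. Its lowest libraries, dsLacZ replicate 2 and dsFib replicate 3, were those with the largest shares of small RNA genes (48.6% and 43.1%), and its highest, dsLacZ replicate 1, had the smallest share (35.1%). Rpn7 had 88.9, 42.3 and 69.9 CPM in dsLacZ and 69.5, 72.2 and 47.6 CPM in libraries labelled dsFib, again lowest in dsLacZ replicate 2 and dsFib replicate 3. For Rpt1 the values were 181.8, 110.4 and 192.4 CPM and 187.3, 206.1 and 138.7 CPM, with the same lowest libraries. These 3 were the only ones of the 7 with that pair of libraries lowest: Rpn8 was highest in dsFib replicate 3, and in Rpt5, Rpt3 and Prosbeta3 the second lowest library was another. The part of the small RNA share in these levels was not tested. Prosbeta5 and Rpt6, in contrast, were highest in dsLacZ replicate 2.

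Of the 7 variable subunits, 6 overlap another annotated gene, against 10 of the other 25, and 3 have a single exon against 1 of 25. Reck, on the opposite strand of Prosbeta2, had 174.0% to 472.2% of its counts, and Slik, on the opposite strand of Rpn8, had 501.0% to 683.1%. Rpt1 shares its own strand with part of CG17985, which had 16.2% to 34.5% of its counts. Reads that fall in such overlaps may be split between the genes, so the levels of these subunits are less certain. Overlap cannot be told apart from level here, since the 7 had a median of 13.9 TPM and the other 25 a median of 42.4 TPM. Overlap also occurred without wide variation. The gene phr, on the opposite strand of Prosalpha1, had 83.5% to 106.0% of its counts, yet Prosalpha1 varied least of all subunits (1.09-fold). The part of overlap or of exon number in the variation was not tested.

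**Figure D5:**
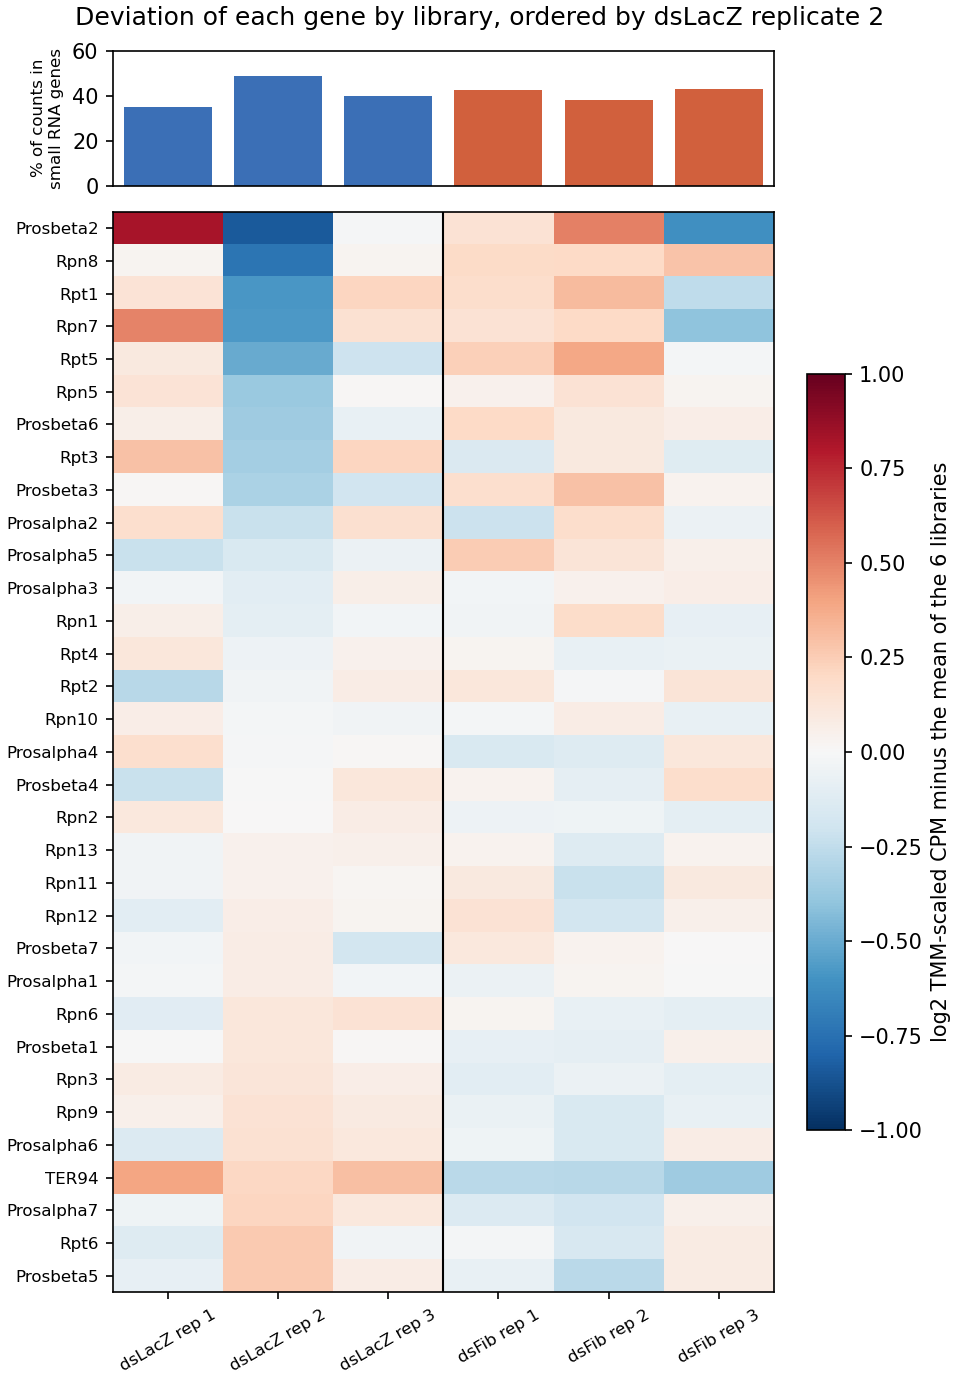
Heat map of the deviation of each gene (log2 TMM-scaled CPM minus the mean of the 6 libraries) for TER94 and the 32 subunits, ordered by the value in dsLacZ replicate 2; bars above give the share of counts in small RNA genes per library. Prosbeta2, Rpn8, Rpt1 and Rpn7 are lowest in dsLacZ replicate 2, and TER94 is higher in the 3 dsLacZ libraries than in the 3 libraries labelled dsFib.

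The paralogues are copies of subunit genes, and several are known in Drosophila for use in the testis. Of the 15, 12 had 0 counts in all 6 libraries: Prosalpha3T, Prosalpha4T1, Prosalpha4T2, Prosalpha6T, Prosbeta2R1, Prosbeta4R1, Prosbeta4R2, Prosbeta5R1, Prosbeta5R2, Rpn12R, Rpn13R and Rpt4R. A count of 0 allows up to 3 counts, or 0.198 to 0.257 CPM on the unscaled library total, in a library, for counting error only. Rpt3R had 2, 4 and 18 counts in dsLacZ and 6, 10 and 2 in the libraries labelled dsFib, and Prosbeta2R2 had 4, 0 and 4 and then 10, 8 and 0 counts. Both lay too low for a test. Of 12 markers of the testis germline, 8 had 0 counts in all libraries, while bam had 8.68 ± 2.22 CPM in dsLacZ and 13.2 ± 3.88 CPM under the dsFib label, and mia had 13.3 ± 2.48 and 14.5 ± 2.45 CPM (mean ± SD, n = 3). Summed over the 12 markers, levels were 17.0 to 25.4 CPM in dsLacZ and 25.2 to 30.6 CPM in libraries labelled dsFib.

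Rpt6R (3R, 30582198 to 30583697, minus strand), the paralogue of the ATPase gene Rpt6, was the exception. It had 48.3, 61.7 and 55.8 CPM in dsLacZ and 49.5, 42.8 and 45.8 CPM in libraries labelled dsFib, and the groups overlapped. The log2 fold change of -0.26 (SE 0.12) did not pass (edgeR adjusted p = 0.315). Per length, Rpt6R had a mean of 14.2 TPM against 78.8 TPM for Rpt6, and among the canonical ATPases its mean exceeded those of Rpt3 (13.9 TPM) and Rpt5 (5.75 TPM). Rpt6R counts were 19.4%, 19.0% and 21.0% of those of Rpt6 in dsLacZ, and 18.4%, 17.6% and 15.9% in the libraries labelled dsFib. All the latter lay below all the former (exact permutation p = 0.1, adjusted p = 0.233, n = 3 per group). Reads shared by the copies could be split in counting, so this ratio is uncertain.

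The canonical genes lie on 5 chromosome arms, with 10 on 2R, 9 on 3R, 5 on 3L and 4 each on 2L and X. The closest pair, Rpt5 and Rpn9 on 3R, is 19414 bp apart, and their log2 fold changes had opposite signs (0.39 and -0.19). Annotated transcripts, taking the longest for each gene, ran from 815 to 3412 nucleotides. On the opposite strand, 15 of the 32 genes have an overlapping gene.

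Genes that work with TER94 were described from a list of 8 cofactors, of which 7 were matched and tested. None passed the edgeR test, DESeq2 or limma-voom, 2 were lower and 0 higher before adjustment (p under 0.05, against 8.26% lower and 7.67% higher of all genes), and the median log2 fold change was -0.17. p47, a cofactor of p97 in membrane fusion, had 138.6, 174.3 and 145.7 CPM in dsLacZ and 112.1, 108.3 and 117.9 CPM in libraries labelled dsFib. Pngl, the peptide N-glycanase that strips sugars from proteins drawn out of the endoplasmic reticulum, had 151.7, 164.2 and 171.3 CPM and then 114.4, 130.8 and 127.1 CPM. For both genes the libraries labelled dsFib lay below all controls, as they did for 12.1% of all genes, with log2 fold changes of -0.44 (SE 0.11) and -0.39 (SE 0.10) and an edgeR adjusted p = 0.108 each. CG8892 had -0.29 (SE 0.14, edgeR adjusted p = 0.353). Npl4 and Ufd1-like, which form the ubiquitin-binding adaptor of p97, had -0.17 and 0.06.

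Of 9 genes listed by name for degradation from the endoplasmic reticulum, the pathway in which p97 extracts substrates, 0 passed by edgeR, DESeq2 or limma-voom. Before adjustment, at p under 0.05, 2 were lower and 0 higher (8.26% and 7.67% of all genes), and the median log2 fold change was -0.05. The lower ones were Edem2, which helps select misfolded glycoproteins (91.5 ± 3.21 and 76.5 ± 3.47 CPM; log2 fold change -0.26, edgeR adjusted p = 0.209), and sip3, the Hrd1 ubiquitin ligase (52.4 ± 3.94 and 43.4 ± 1.00 CPM; -0.27, edgeR adjusted p = 0.223). The groups did not overlap for these 2, lower, or for Hrd3 and Ubc6, higher, against 12.1% lower and 11.0% higher of all genes. Hrd3, the partner of the Hrd1 ligase, had 0.24 (edgeR adjusted p = 0.503), and the ubiquitin-conjugating enzyme gene Ubc6 had 0.22 (edgeR adjusted p = 0.442). Hrd3 overlaps Rpt5 (log2 fold change 0.39) on the opposite strand. Strand use in counting is not given, so reads may be split between Hrd3 and Rpt5. Ubc6 was listed by its name alone, and whether the fly gene acts in this pathway was not examined.

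Factors that assemble, activate or trim at the proteasome were 8 by name, of which 7 were matched and tested. None passed by the 3 tools or before adjustment (p under 0.05), and the median log2 fold change was -0.16. PI31, a regulator that binds the core, had -0.23 (SE 0.13, edgeR adjusted p = 0.421). The deubiquitinating enzyme gene Usp14 had -0.16 (edgeR adjusted p = 0.448) and CG8858, the fly Ecm29, -0.35 (edgeR adjusted p = 0.518). The activator gene REG had 0.02, and Pomp, which chaperones core assembly, 0.39. Sem1, a small lid subunit outside the naming rule, had 2.17 ± 1.19 and 2.60 ± 0.56 CPM and a log2 fold change of 0.24.

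Ubiquitin genes, the E1 enzyme and shuttle receptors numbered 8, and 0 passed by any of the 3 tools, with 1 higher and 0 lower before adjustment (p under 0.05, where 7.67% of all genes were higher and 8.26% lower) and a median log2 fold change of 0.09. That gene was RpL40, whose product is ubiquitin fused to a ribosomal protein, with 585.9 ± 7.47 and 715.9 ± 28.3 CPM and groups that did not overlap, as for 11.0% of all genes (0.29, edgeR adjusted p = 0.204). The shuttle receptor gene Rad23 had 0.17 (edgeR adjusted p = 0.525) and the ubiquitin gene Ubi-p5E 0.14 (edgeR adjusted p = 0.610).

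Last, the transcription factor Cnc, which in its long form induces proteasome genes when proteasome activity is low, and its partners made a list of 5, of which 0 passed by the 3 tools. Before adjustment, at p under 0.05, 0 were higher and 1 lower (7.67% and 8.26% of all genes), the lower one being Pngl, which also counts among the cofactors. Keap1, which holds Cnc in check, had 0.34 (edgeR adjusted p = 0.592) and cnc 0.12 (edgeR adjusted p = 0.708). The median of the list was 0.04.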

How the data were processed

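RNA of S2R+ cells was measured in 6 libraries, 3 per group. Per the file headers, the columns deposited by the authors are estimated counts, CPM and TPM of each gene. Per the submitters' processing notes cutadapt 3.4, Bowtie2, STAR and the build dm6 were used, with no roles given. CoCo is named as the counter in the deposited tables' names, and for its settings, strand use included, the sources used here are silent. Of the whole nonzero counts 76.0% to 80.1% were even. Rounded counts went into edgeR 4.0.16 under R 4.3.3 (filterByExpr, TMM, quasi-likelihood test, group as the single term), and p-values were adjusted by Benjamini-Hochberg over the 8302 tested genes (called below 0.05). SE is the log2 fold change over the root of the F statistic, and 95% intervals use its t quantile. CPM is TMM-scaled unless said. Levels per length were compared between genes only in the deposited TPM, whose transcript lengths are the authors'. Ranks and limits by mean CPM, and ratios of counts between genes, take no account of length. The fit was tested on simulated data. Coordinates are from Ensembl's BDGP6 annotation (dm6 coordinates), where 48 of 48 genes were found by identifier. Small RNA genes are tRNA, snoRNA, snRNA, rRNA and microRNA precursor genes by biotype or name.

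The genes and lists were chosen with earlier results of these data known. Named with values per library were TER94, the gene with the smallest p and that with the highest mean TPM in each class, and paralogues with a mean of at least 1 CPM. The 3 smallest p-values were taken from each related list. Others named (the most variable subunits, genes whose groups did not overlap, overlapping genes, partners with textbook roles) were picked after their values were seen. Ube3c and Plaa were not matched by name and are not analysed here. Neuron and muscle markers summed to at most 30.7 and 1.86 CPM in any library. DESeq2 1.42.0, limma-voom (limma 3.58.1), other scalings, other filters, a replicate block and leaving out each library were the alternatives, and voom with quality weights was added after the data were seen.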

Additional observations from a re-analysis of the deposited data

How the results depend on the processing

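The count of canonical subunits past the threshold was 0 in each direction under all 15 alternatives, under which 0.012% to 6.62% of the genes tested were called. TER94 kept its direction under all 15 and passed under 8 (adjusted p from 8.23e-06 to 0.247). It did not pass with total counts alone (log2 fold change -0.65, adjusted p = 0.115) or with the replicate number as a block (-0.60, adjusted p = 0.208), where 1 gene of 8302 was called. Same-numbered libraries did not deviate together (correlations -0.044, -0.21 and -0.11, and 0 of 3 best with its own number), so the numbers were not taken as pairs. Leaving out 1 library gave -0.65 to -0.54 for TER94. The core median (-0.046) was -0.086 with total counts alone, -0.024 with limma-voom and -0.016 with the replicate block. Without single libraries it was -0.022 to 0.0091. These shifts are larger than the SD of 0.020 between libraries in that median. The median over all genes moved as well, by -0.038 with total counts alone, 0.0063 with limma-voom and 0.0062 with the replicate block. The cause was not tested. Base and lid medians, the ratios and the subunit share moved by less than their spread. The spread of the share includes dsLacZ replicate 2. Its difference was -0.019 percentage points with all libraries and -0.047 without dsLacZ replicate 2. It was -0.031 on counts outside the small RNA classes. The groups overlapped in the first case but not in the others. For Rpn11 and Rpt6 the sign, near 0, turned: Rpn11 had 0.0011 with no filter, 0.0084 with quality weights, and -0.061 to 0.10 without single libraries, and Rpt6 had -0.14 to 0.051 without single libraries. The subunit with the fewest counts was Rpn8 (82 to 202), and 14 of 15 paralogues were too low to test.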
